A study of Homo sapiens with 10 samples.

Results

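Serum amyloid A, complement and related acute-phase genes were examined in TPC-1 cells as a group of 8 genes of the 58735 in the deposited count tables: SAA1, SAA2, C3, CFB, C1R, C1S, LCN2 and PTX3. They were chosen by name, with their OE against EV changes in these libraries already known, so those changes, and the counts of calls on them, are given as a description from which nothing is read. All 8 were found in both tables, and 4 of them (SAA1, C3, C1R and PTX3) had enough counts to enter the fits.

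The acute-phase response is the change in protein secretion that follows infection or injury, driven mainly by IL-6 and IL-1 through STAT3, NF-kB and C/EBP factors. Complement is a cascade of plasma proteins in which the classical route starts with the proteases C1r and C1s, the alternative route uses factor B, and both meet at the cleavage of C3. The liver makes most of these proteins, and epithelial and tumour cells can make some of them.

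TPC-1 is an established line from a human papillary thyroid carcinoma that carries the RET/PTC1 rearrangement. RNA was sequenced from cells with a vector overexpressing the long non-coding RNA PTCSC3-AS1 (OE, n = 5) and from cells with an empty vector (EV, n = 5). A second set (replicates 4 and 5 of each group) and a first set (replicates 1 to 3 of each group) were deposited as separate tables, whose OE columns carry the names OE in the second set and EST_OE in the first. The sources used here do not give whether the vector was the same in each set, what else separates the sets, or whether replicates were separate cultures, so the p-values reflect only library-to-library spread, part of which may be technical.

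The libraries held 15761474 to 18066559 counts, and 3 counts, taken as the limit that a count of 0 allows, equalled 0.166 to 0.190 CPM (counts scaled by library size with TMM factors). Of 12 thyroid epithelial markers, 10 were detected, with the thyroid transcription factor PAX8 at 55.9 CPM per kilobase and the keratin KRT18 at 83.6 CPM per kilobase on average, while NKX2-1 and TSHR had a count of 0 in every library. Hepatocyte markers (8 of 10 detected) summed to 0.0605 to 0.562 CPM, endothelial markers (4 of 5, KDR at 0) to 0.533 to 1.45 CPM, leukocyte markers (6 of 9, with CD3E and MS4A1 among those at 0) to 1.66 to 3.48 CPM and neutrophil markers (6 of 8, with MPO and ELANE at 0) to 0.383 to 3.22 CPM. The level of PTCSC3-AS1 was not analysed here. In such bulk RNA, fewer cells that express a gene and less RNA of it per cell cannot be told apart.

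SAA1 and SAA2 encode the acute-phase serum amyloid A proteins, which travel with high-density lipoprotein, and lie on chromosome 11. A stretch of their coding sequences is shown because reads of one gene can match the other. Both coding sequences are 369 bases in GENCODE 29 on GRCh38, from SAA1-201 at chr11:18266174-18269974 on the plus strand and SAA2-201 at chr11:18245228-18248643 on the minus strand. Bases 221 to 340, counted from the start codon, are printed, which hold 10 of the differences, and capitals mark the bases that differ.
SAA1: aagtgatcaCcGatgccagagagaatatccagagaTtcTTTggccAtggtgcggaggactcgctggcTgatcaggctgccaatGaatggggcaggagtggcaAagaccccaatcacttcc
SAA2: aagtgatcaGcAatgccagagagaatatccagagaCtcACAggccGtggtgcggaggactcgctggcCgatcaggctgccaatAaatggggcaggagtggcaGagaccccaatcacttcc
The whole coding sequences differ at 11 bases (97% identity), and the longest identical run is 186 bases, so the split of reads between the 2 genes is uncertain. The deposited tables give them the identifiers ENSG00000173432 for SAA1 and ENSG00000134339 for SAA2. The neighbouring SAA4, the readthrough gene SAA2-SAA4 and the pseudogene SAA3P each had a total of 0 counts.

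Promoter sequence was matched in RefSeq (GRCh38.p14) for 4 of the 8 genes, C1R, CFB, LCN2 and PTX3. Those of PTX3, LCN2 and CFB are shown because they hold motifs of the factors named above while the level of PTX3 lies far above that of LCN2 and CFB in these cells. Each is the 250 bases before the start that RefSeq gives, which lies inside the span that the deposited tables give the gene, at chr3:157436600-157436849, chr9:128149203-128149452 and chr6:31945845-31946094, all on the plus strand, with matched motifs in capitals.
PTX3: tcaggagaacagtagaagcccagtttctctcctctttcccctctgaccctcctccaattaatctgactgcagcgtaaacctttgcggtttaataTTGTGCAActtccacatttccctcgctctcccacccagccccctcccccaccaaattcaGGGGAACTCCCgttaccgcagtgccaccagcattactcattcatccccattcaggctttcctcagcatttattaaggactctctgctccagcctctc
LCN2: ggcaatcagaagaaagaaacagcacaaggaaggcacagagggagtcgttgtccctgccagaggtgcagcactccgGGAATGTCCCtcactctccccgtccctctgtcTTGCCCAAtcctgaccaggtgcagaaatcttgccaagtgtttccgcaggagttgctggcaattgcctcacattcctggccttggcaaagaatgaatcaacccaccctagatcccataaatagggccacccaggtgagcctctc
CFB: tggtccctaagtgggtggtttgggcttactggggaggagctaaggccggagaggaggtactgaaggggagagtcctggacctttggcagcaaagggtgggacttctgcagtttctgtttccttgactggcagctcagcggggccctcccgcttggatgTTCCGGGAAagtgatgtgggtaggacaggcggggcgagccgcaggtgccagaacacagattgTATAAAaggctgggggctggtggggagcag
Motifs were searched on both strands as the NF-kB consensus, TTGCNNAA for C/EBP, TTCNNNGAA for STAT factors, and TATAAA for the TATA box. The PTX3 promoter held an NF-kB match at 97 bases before the start on one strand, overlapped by a match at 96 on the other, and a C/EBP match at 156. The LCN2 promoter held an NF-kB match at 175 and a C/EBP match at 143, and the CFB promoter a STAT match at 92 and a TATA box at 30 bases before the start. Both start sites listed for C1R had a C/EBP match, and one had a STAT match. Among 35116 promoters of the same length, 5.21% held the NF-kB consensus, 9.05% the C/EBP motif, 6.57% the STAT motif and 10.7% TATAAA.

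C3 was the most abundant of the 8 transcripts, and the complement proteases were far lower. Per gene length, C3 averaged 19.0 CPM per kilobase over the 10 libraries, rank 2614 of 58735 genes. The soluble pattern recognition molecule PTX3 averaged 7.11 CPM per kilobase (rank 5817) and SAA1 5.79 CPM per kilobase (rank 6565). Among the classical pathway proteases C1R was at 0.111 and C1S was at 0.0423 CPM per kilobase. LCN2, a lipocalin that binds bacterial siderophores, averaged 0.0617, SAA2 0.0330 and CFB, the protease subunit of the alternative pathway convertase, 0.0197 CPM per kilobase. Over the 10 libraries C3 did not overlap PTX3, and SAA1 did not overlap C1R, whereas PTX3 overlapped SAA1 and the 5 lowest genes overlapped their neighbours in this order. The order of PTX3 and SAA1 changed with the group, since in the OE libraries of the second set SAA1 (8.44 CPM per kilobase) lay above PTX3 (6.31) without overlap, in the EV libraries of that set they overlapped, and in the EV libraries of the first set PTX3 (7.87) lay above SAA1 (3.05) without overlap.

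**Figure D1:**
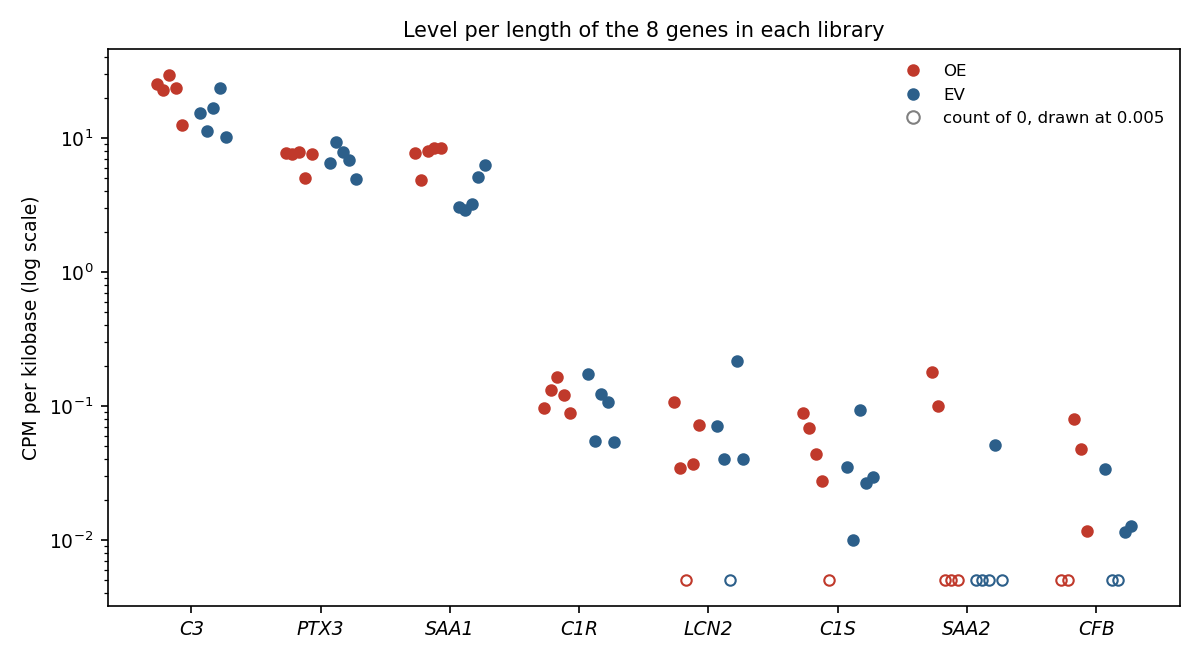
Level of each of the 8 genes in each library, as CPM per kilobase of gene length on a log scale, with OE left of EV and open circles for a count of 0. C3, PTX3 and SAA1 lie above 1 in every library, and the 5 other genes lie below it.

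SAA1 was higher in OE than in EV libraries within each set. In OE replicates 1 to 5 it had 6.09, 3.88, 6.32, 6.70 and 6.74 CPM, and in EV replicates 1 to 5 it had 2.42, 2.32, 2.54, 4.06 and 5.04 CPM. Within each set every OE library lay above every EV library, but across the sets OE replicate 2 lay below EV replicates 4 and 5, so that over all 10 libraries the groups overlapped. The second set averaged 6.72 ± 0.0294 CPM in OE and 4.55 ± 0.691 CPM in EV (SD, n = 2 each), and the first set 5.43 ± 1.35 CPM in OE and 2.43 ± 0.110 CPM in EV (SD, n = 3 each). The log2 change, OE over EV, was 0.90 over both sets (SE 0.19, 95% interval 0.51 to 1.30), 0.57 in the second set (SE 0.23, 0.02 to 1.12) and 1.15 in the first (SE 0.24, 0.60 to 1.70). Of the 14217 genes tested over both sets, 15 (0.106%) had a change at least as high.

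SAA2 was close to the limit of detection, with 7, 4, 0, 0 and 0 counts in OE replicates 1 to 5 and 0, 0, 0, 2 and 0 counts in EV replicates 1 to 5. The OE counts were all in the first set and the EV counts all in 1 library of the second set. Over both sets the 11 OE counts had an exact 95% Poisson interval of 5.49 to 19.7, and the 2 EV counts one of 0.242 to 7.23. These overlap. In the first set alone the 0 EV counts had an interval of 0 to 3.69, which does not overlap that of the 11 OE counts. In the second set the 0 OE counts had an interval of 0 to 3.69, which overlaps that of the 2 EV counts. All these intervals cover counting error only, and the share of all genes so separated was not counted. With SAA1 and SAA2 summed, the genes had 528 counts in OE and 273 counts in EV, and the log2 change of the sum was 0.93 (SE 0.19) over both sets.

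C3 was higher in OE libraries of the first set, while in the second set the libraries of one vector lay further apart than the vectors did. It had 208, 191, 247, 196 and 104 CPM in OE replicates 1 to 5 and 128, 93.4, 140, 195 and 84.0 CPM in EV replicates 1 to 5. In the first set the groups did not overlap, at 215 ± 28.8 CPM in OE and 120 ± 24.0 CPM in EV (SD, n = 3 each). In the second set the OE and EV libraries numbered 4 were both high and nearly equal, and the OE and EV libraries numbered 5 both low, giving 150 ± 64.9 CPM in OE and 140 ± 78.6 CPM in EV (SD, n = 2 each). The log2 change, OE over EV, was 0.54 over both sets (SE 0.23, 95% interval 0.06 to 1.03), 0.10 in the second set (SE 0.41, -0.87 to 1.08) and 0.83 in the first (SE 0.16, 0.47 to 1.18). Single libraries set the value of the second set, which came to 0.83 when EV replicate 4 was left out and 0.49 when OE replicate 5 was. Leaving out EV replicate 5 gave -0.38 and leaving out OE replicate 4 gave -0.43. Without EV replicate 4 the change over both sets was 0.83.

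The identifier of C3 is ENSG00000125730, at chr19:6677704-6730562 on the minus strand of hg38. The start of the gene, at its highest coordinates, shares 649 bases with GPR108 on the same strand (533 to 809 counts per library). AC008760.2 (1 to 27 counts) lies inside C3. How the counting treated reads in overlaps, and whether it used strand, the sources used here do not give.

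**Figure D2:**
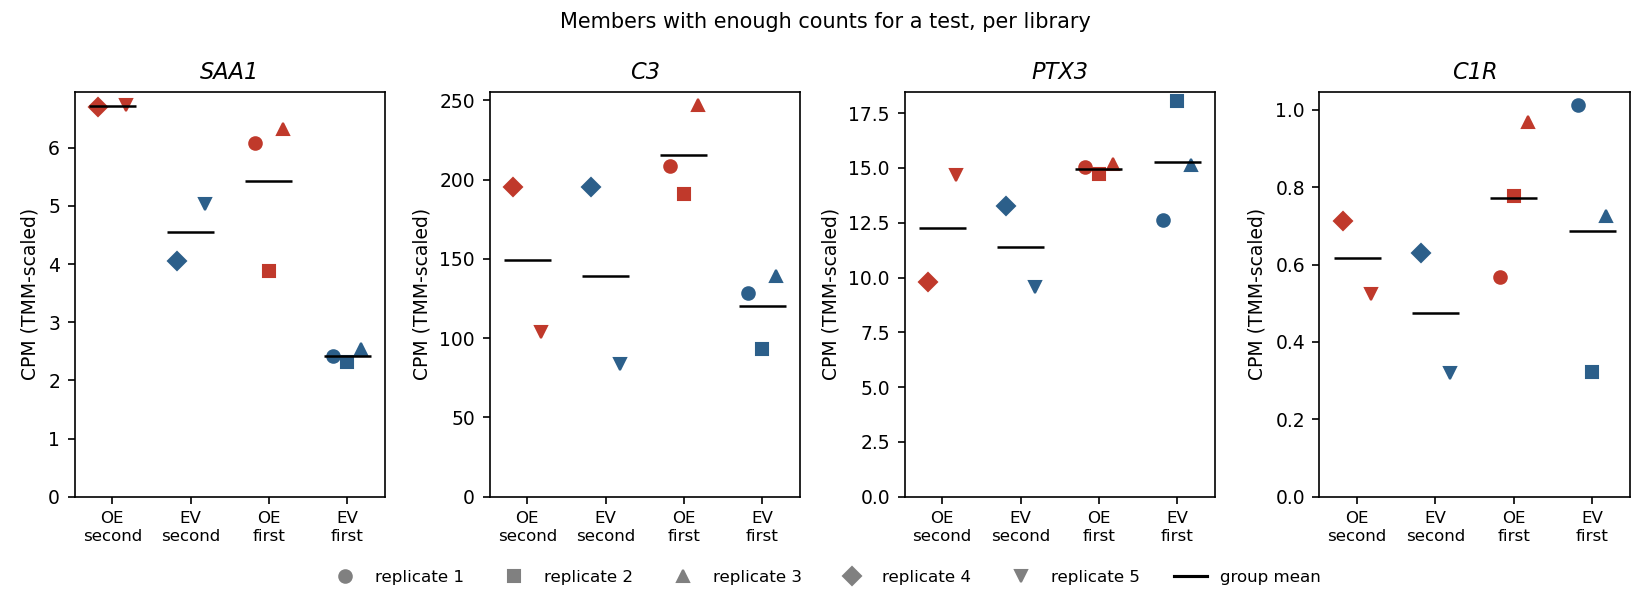
CPM of SAA1, C3, PTX3 and C1R in each library, by set and vector, with a marker per replicate number and a line at the group mean. SAA1 is higher in OE than in EV in both sets, and C3 in the second set splits by replicate number, 195 to 196 CPM at number 4 against 84.0 to 104 CPM at number 5.

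PTX3, a long pentraxin that binds C1q and microbes, averaged 13.9 ± 2.30 CPM in OE and 13.7 ± 3.14 CPM in EV (SD, n = 5 each). Single libraries had 15.0, 14.7, 15.2, 9.78 and 14.7 CPM in OE replicates 1 to 5 and 12.6, 18.04, 15.1, 13.3 and 9.56 CPM in EV replicates 1 to 5. All 5 OE libraries lay within the range of the EV libraries, and OE replicate 4 was the lowest of the OE libraries. The log2 change, OE over EV, was 0.02 over both sets (SE 0.14, 95% interval -0.28 to 0.32), 0.10 in the second set (SE 0.25) and -0.03 in the first (SE 0.15). The gene (ENSG00000163661, chr3:157436789-157443628, plus strand) lies inside VEPH1 on the opposite strand, which had 583 to 1006 counts per library and a log2 change of 0.07 (SE 0.08). If the counting did not use strand, reads of the pair cannot be told apart.

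C1R, which cleaves C1s in the C1 complex, had 10, 14, 17, 12 and 9 counts in OE replicates 1 to 5 and 18, 5, 12, 11 and 5 counts in EV replicates 1 to 5. The groups overlapped in each set. The log2 change, OE over EV, was 0.23 over both sets (SE 0.37, 95% interval -0.57 to 1.02), 0.36 in the second set (SE 0.63) and 0.14 in the first (SE 0.49). The value of the first set was -0.18 without EV replicate 2 and -0.05 once OE replicate 3 was left out, and that of the second set was -0.03 without EV replicate 5. C1R (ENSG00000159403, chr12:7080199-7092607, minus strand) shares 3021 bases with C1RL on the same strand, which had 110 to 189 counts per library.

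C1S, CFB and LCN2 did not reach the count filter. C1S, the protease that cleaves C4 and C2, had 10, 8, 5, 3 and 0 counts in OE replicates 1 to 5 and 4, 1, 10, 3 and 3 counts in EV replicates 1 to 5. CFB had 0, 0, 7, 4 and 1 counts in OE replicates 1 to 5 and 3, 0, 0, 1 and 1 counts in EV replicates 1 to 5. LCN2 had 3, 1, 0, 1 and 2 counts in OE replicates 1 to 5 and 2, 1, 0, 6 and 1 counts in EV replicates 1 to 5. The groups overlapped for each of these genes. Their sums were 26 counts in OE and 21 counts in EV for C1S, 12 and 5 for CFB, and 7 and 10 for LCN2, and the exact Poisson intervals of each pair overlapped (for CFB, 6.20 to 21.0 in OE and 1.62 to 11.7 in EV). A difference between the vectors was not detectable at this depth. C1S (ENSG00000182326, chr12:6988259-7071032, plus strand) overlaps EMG1 and, on the opposite strand, LPCAT3, and CFB (ENSG00000243649, chr6:31945650-31952084, plus strand) shares 23 bases with C2. The identifier of LCN2 is ENSG00000148346 (chr9:128149071-128153455, plus strand).

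**Figure D3:**
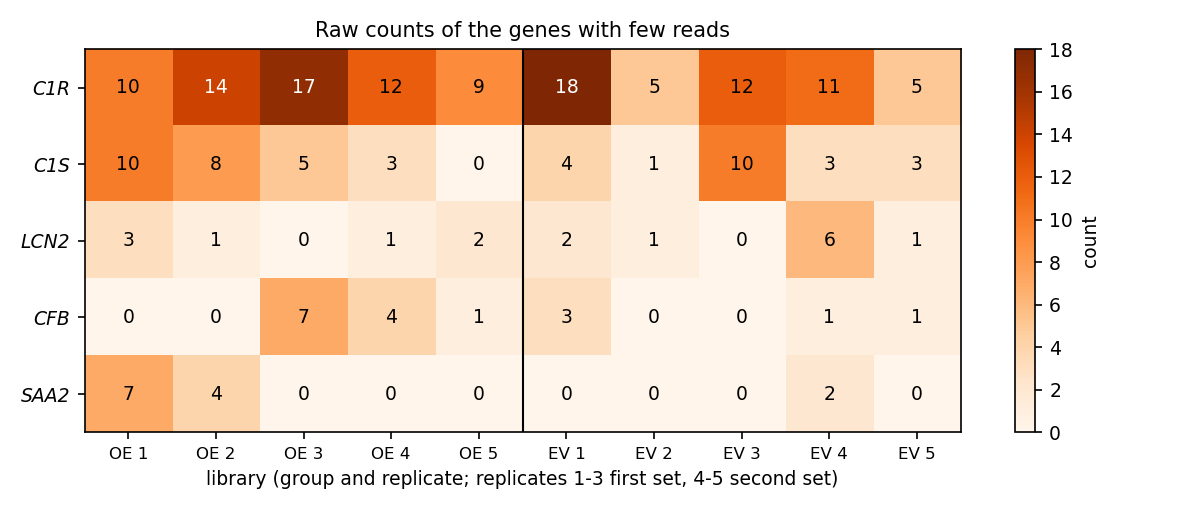
Raw counts of C1R, C1S, LCN2, CFB and SAA2 in each library, OE left and EV right, darker for more counts. No gene of these 5 exceeds 18 counts in a library, and the OE and EV counts overlap for each.

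By edgeR's quasi-likelihood test over both sets, 0 of the 4 genes fitted passed an adjusted p of 0.05 in the OE against EV comparison, and 0% of the 14217 genes tested did. At an unadjusted p under 0.05 there were 2 of 4, SAA1 and C3, beside 5.71% of all genes. DESeq2 called SAA1, among 6 of 14217 genes in all, and limma-voom called 0 of the 4. In the first set alone 0 of 4 passed in edgeR (0.0349% of 14340 genes) and 0 in limma-voom, while 2 of 4, again SAA1 and C3, were under an unadjusted 0.05 in edgeR beside 8.84% of all genes. DESeq2 called SAA1 and C3 there, among 76 of 14340 genes in all. So did edgeR without EV replicate 2, among 1578 of 14769 genes. In the second set 0 of 4 passed by each of the 3 tools (0% of 14419 genes in edgeR), with SAA1 under an unadjusted 0.05 in edgeR beside 1.1% of all genes. OE libraries lay above all EV libraries for SAA1 in the second set (12.3% of genes), for SAA1 and C3 in the first (9.15%), for SAA1 in each set (1.24% of 13947 genes) and for none of the 4 over all 10 libraries (0.253%). These counts are given as a description, since the genes were chosen with this comparison known.

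**Figure D4:**
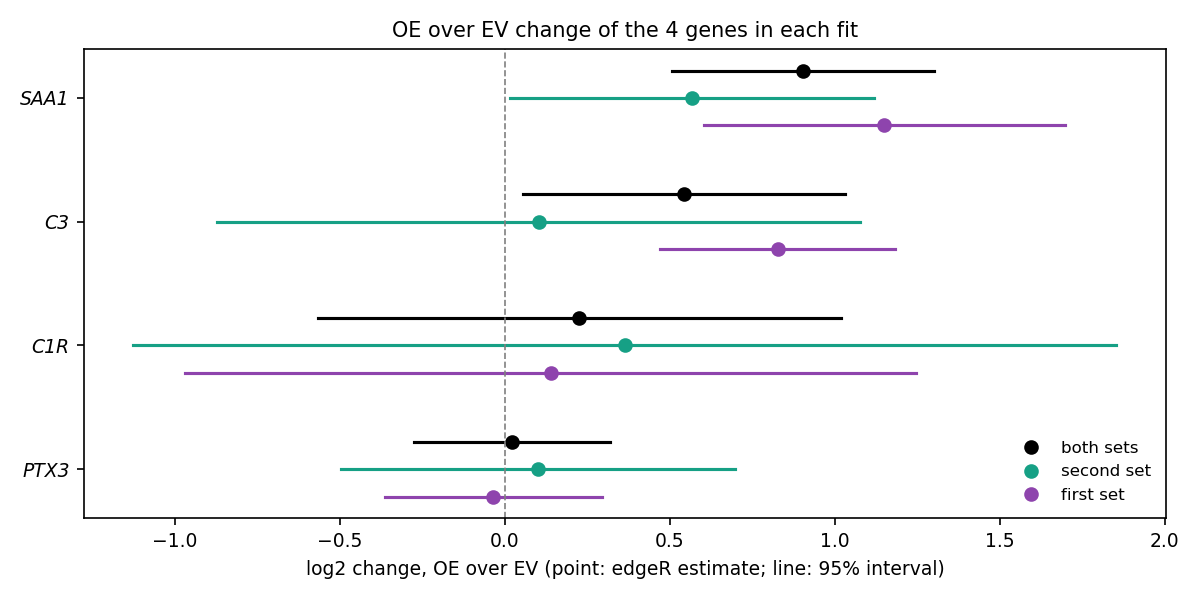
Log2 change, OE over EV, of SAA1, C3, C1R and PTX3 over both sets, in the second set and in the first set, as the edgeR estimate with its 95% interval. The intervals of SAA1 lie above 0 in each fit, that of C3 spans 0 in the second set, and those of C1R and PTX3 span 0 in each fit.

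The change in the second set minus that in the first was -0.60 for SAA1 (SE 0.35, 95% interval -1.35 to 0.16) and -0.74 for C3 (SE 0.44, -1.70 to 0.22) on the log2 scale. Both intervals include 0. Leaving out EV replicate 4 brought the value for C3 to 0.0039, and leaving out OE replicate 4 to -1.25. Of the 4 genes 0 passed the adjusted threshold in edgeR, beside 0.00703% of all genes, and 0 passed in DESeq2 or limma-voom. At an unadjusted p under 0.05 in edgeR there were 0 of the 4, and the share of all genes is not given here. The value was 0.21 for C1R (SE 0.79) and 0.12 for PTX3 (SE 0.29). The authors' deposited table compares single libraries of the second set. It gives SAA1 a log2 fold change of 0.43 between the OE and EV libraries numbered 5 and one of 0.73 between those numbered 4. For C3 the authors' deposited table gives 0.31 at replicate 5 and 0.0096 at replicate 4, and for PTX3 0.63 at replicate 5 and -0.43 at replicate 4, and the adjusted p of each is 1.

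The summed level of fibroblast markers did not overlap between OE and EV in the first set. Of single genes tested there, 9.15% were higher in OE without overlap, but a sum is an unlike measure whose rate was not counted. Of 8 fibroblast markers 5 were detected, and COL3A1, COL1A2 and DCN had a count of 0 in every library. Their summed level in the first set was 9.53 to 10.3 CPM in OE and 6.64 to 7.75 CPM in EV, and in the second set 7.49 to 9.60 CPM in OE and 8.22 to 8.52 CPM in EV. The highest markers had log2 changes, OE over EV, of 0.43 for PDGFRB (SE 0.25, edgeR adjusted p = 0.665) and 0.76 for COL1A1 (SE 0.22, edgeR adjusted p = 0.417) in the first set. LUM, the next highest, was not tested there and averaged 0.518 CPM in OE and 0.811 CPM in EV over both sets. In the second set the changes were 0.16 for PDGFRB (SE 0.30), -0.07 for COL1A1 (SE 0.33) and -0.36 for LUM (SE 0.69). The summed thyroid epithelial markers also did not overlap in the first set, at 840 to 890 CPM in OE and 725 to 805 CPM in EV. The part of these differences in the changes of SAA1 and C3 was not tested.

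The sets also differed, in a comparison that was not used to choose the genes. Between the second set and the first, 18.4% of 14217 genes passed the adjusted threshold, 9.27% higher and 9.17% lower, and 1 of the 4 genes fitted did, SAA1. SAA1 averaged 5.63 ± 1.32 CPM in the second set (SD, n = 4) and 3.93 ± 1.86 CPM in the first (SD, n = 6), a log2 change of 0.58 with vector as a term (SE 0.19, edgeR adjusted p = 0.0427). Over both vectors the sets overlapped, and within each vector they did not, the second set being higher in OE (6.70 and 6.74 against 3.88 to 6.32 CPM) and in EV (4.06 and 5.04 against 2.32 to 2.54 CPM). The share of all genes whose sets separate in this way was not counted, so nothing is read from this separation. The call is close to the threshold, since the adjusted p was 0.0536 with limma-voom, 0.0216 with DESeq2 and 0.0342 to 0.137 when single libraries were left out, where 3 of 10 fits called it (those without EV replicate 2, OE replicate 1 and OE replicate 3).

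PTX3 had a log2 change of -0.35 between the second set and the first (SE 0.14, edgeR adjusted p = 0.103), with 11.8 ± 2.56 CPM in the second set (SD, n = 4) and 15.1 ± 1.72 CPM in the first (SD, n = 6). It passed without OE replicate 5 (-0.50, edgeR adjusted p = 0.0374). VEPH1, in which PTX3 lies, had a change of -0.30 (SE 0.08) between the same sets. C3 had a change of -0.15 (SE 0.23, edgeR adjusted p = 0.700) and C1R one of -0.42 (SE 0.38, edgeR adjusted p = 0.486). The value for C3 depends on the replicate number, being -0.78 without the libraries numbered 4 (edgeR adjusted p = 0.0276) and 0.30 without those numbered 5.

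C3 fell in the libraries numbered 5 relative to those numbered 4, in both vectors. It had 104 CPM in OE replicate 5 and 84.0 CPM in EV replicate 5, against 196 CPM in OE replicate 4 and 195 CPM in EV replicate 4. The log2 change, replicate 5 over replicate 4 with vector as a term, was -1.06 (SE 0.06, edgeR adjusted p = 2.59e-68), and the adjusted p was 1.64e-21 with DESeq2. The fit has 1 residual degree of freedom and takes its spread from all genes, so the p describes these 4 libraries and not what separates the numbers, which the sources used here do not give. Of 14419 genes 14.4% passed in either direction and 7.1% as lower, and C3 was the 1 of 4 that did. SAA1 had a change of 0.15 (SE 0.23, edgeR adjusted p = 0.756), PTX3 one of 0.07 (SE 0.16, edgeR adjusted p = 0.846) and C1R one of -0.67 (SE 0.69, edgeR adjusted p = 0.590).

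Genes of the interferon response fell between the same libraries. Of 34 listed 30 were tested and 25 fell, beside 7.1% of all genes, and 0 rose, with a median log2 change of -1.31 beside -0.0022 over all genes. ISG15, a ubiquitin-like modifier, had a change of -1.54 (SE 0.05), and the RNA-binding antiviral proteins IFIT3 and IFIT1 had changes of -1.49 (SE 0.06) and -1.42 (SE 0.06). The summed level of the list was 1039 CPM in OE replicate 5 and 966 CPM in EV replicate 5, against 2652 CPM in OE replicate 4 and 2156 CPM in EV replicate 4. In the first set it was 1179 to 1293 CPM in OE and 1231 to 1347 CPM in EV, so that this list overlapped where C3 did not.

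**Figure D5:**
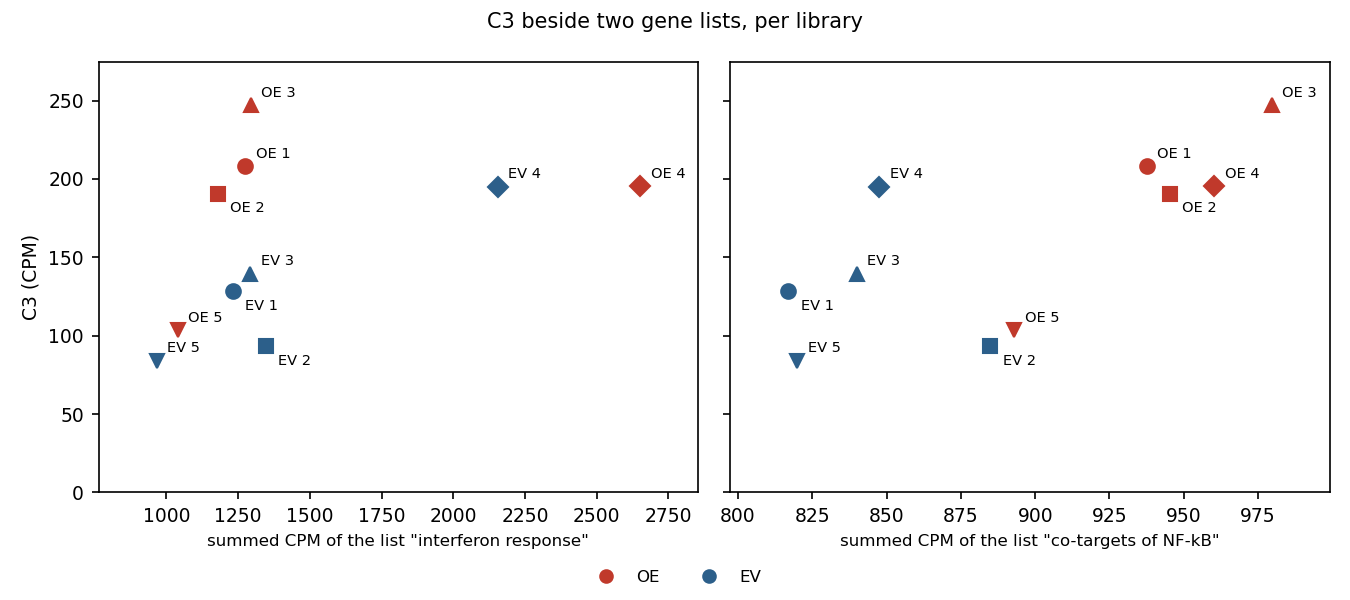
CPM of C3 in each library against the summed CPM of the interferon response list (left) and of the list of NF-kB co-targets (right), with the group by colour and the replicate number by label. The libraries numbered 4 stand apart on the interferon axis at 2156 and 2652 CPM, and on the NF-kB axis the 5 OE libraries lie above the 5 EV libraries. Neither horizontal axis starts at 0.

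None of the 8 lists of related genes had a member past the adjusted threshold of edgeR or limma-voom in OE against EV over both sets or in either set. At an unadjusted p under 0.05 over both sets, where 5.71% of all genes were in either direction, edgeR had 4 of 13 NF-kB co-targets higher (CXCL1, SOD2, TNFAIP2 and CSF2) and 2 of 25 transcription factor and feedback genes higher. There were also 1 of 17 cytokine and receptor genes higher, 1 of 30 interferon genes higher and 1 lower, 1 of 6 complement components lower and 0 in the other lists. In the first set, where 8.84% of all genes were, 2 of 30 interferon genes were higher and 8 lower, 3 of 13 NF-kB co-targets higher and 1 lower, and 4 of 25 transcription factor and feedback genes higher and 1 lower. There 2 of 18 cytokine and receptor genes were higher and 1 lower, 1 of 6 complement components higher, 1 of 3 other acute-phase genes higher and 1 lower, and 0 in the other lists. In the second set, where 1.1% of all genes were, there were 2 of 25 transcription factor and feedback genes higher, 1 of 17 cytokine and receptor genes lower and 1 of 6 complement components lower, and 0 in the other lists. DESeq2 called 2 interferon genes in the first set, IFI6 and IFIT2, and 0 genes of the other lists there, and 0 over both sets and in the second set.

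Other acute-phase genes were mostly at very low levels. Of 24 listed 20 were detected and 5 were tested over both sets, and in OE against EV 0 passed in edgeR, with a median log2 change of 0.17 beside -0.0028 over all genes. SERPINA1, the inhibitor of neutrophil elastase, was the highest at 14.4 CPM per kilobase, and CHI3L2 was at 0.518. In replicate 5 against replicate 4, 2 of 6 fell, beside 7.1% of all genes, SERPINA1 with a log2 change of -0.76 (SE 0.07) and the fibrinogen chain FGB with one of -1.89 (SE 0.39). FGB rose in the second set against the first (2.47, SE 0.45).

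Other complement components had 17 of 25 detected and 6 tested over both sets, with 0 called in OE against EV and a median log2 change of 0.07. The sets differed in sign, with a median of -0.13 in the second set (1 of 6 above 0) and 0.17 in the first (5 of 6 above 0). The difference of the changes, second set minus first, had a median of -0.41 and was -0.14 for CFD (SE 0.34), -0.37 for C1RL (SE 0.34) and -0.45 for COLEC12 (SE 0.42), with an edgeR adjusted p of 1 for each. In the second set the summed level was 22.8 to 23.7 CPM in OE and 25.2 to 25.7 CPM in EV. In the first it was 27.9 to 29.1 CPM in OE and 24.2 to 26.1 CPM in EV, without overlap in either set. Of single genes tested in the first set, 9.15% were higher in OE without overlap. The share lower in OE in the second set is not given here, nor is a rate for sums. Nothing is read from this separation. The alternative pathway protease CFD (4.68 CPM per kilobase), C1RL (1.65) and the collectin COLEC12 (0.608) were the highest. COLEC12 rose in replicate 5 against replicate 4 (0.82, SE 0.29). Regulators and receptors of complement had 21 of 26 detected and 10 tested over both sets, with 0 called and a median of -0.06. Their highest were C1QBP (157 CPM per kilobase), clusterin CLU (83.2), which blocks the terminal complex, and the C3b cofactor CD46 (28.6). In the second set against the first, CLU fell (-0.84, SE 0.08), CD46 fell (-0.35, SE 0.07) and the integrin chain ITGB2 rose (1.97, SE 0.25), and in all 1 of the 10 rose, beside 9.27% of all genes, and 4 fell, beside 9.17%.

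Receptors and partners of SAA, LCN2 and PTX3 had 12 of 13 detected and 7 tested over both sets, with 0 called in OE against EV and a median of -0.01. FGF2, a growth factor bound by PTX3, averaged 19.3, the formyl peptide receptor FPR1 5.09 and the LCN2 partner MMP9 1.95 CPM per kilobase. FPR1 fell in the second set against the first (-0.48, SE 0.12), and MMP9 fell in replicate 5 against replicate 4 (-0.75, SE 0.26).

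Upstream cytokines and their receptors had 17 tested of 22 over both sets and 0 called in OE against EV, with a median log2 change of 0.04. TNFRSF1A (59.2 CPM per kilobase), LIF (22.7) and the shared receptor chain IL6ST (20.9) were the highest. IL1R1 fell in the second set against the first (-0.80, SE 0.10), and IL6 fell in replicate 5 against replicate 4 (-0.60, SE 0.10). Upstream transcription factors and feedback genes had 25 tested of 26, 0 called and a median of 0.08, with 22 of 25 above 0 beside 49.2% of all genes. CEBPB (118 CPM per kilobase) and CEBPD (43.4) were the highest. In the second set against the first CEBPB fell (-0.89, SE 0.11), the feedback inhibitor SOCS1 fell (-1.43, SE 0.20) and CEBPA rose (0.71, SE 0.14).

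Co-targets of NF-kB had 13 tested of 18 over both sets, with 0 called in OE against EV in edgeR and a median log2 change of 0.17. Their summed level was 893 to 980 CPM in OE and 817 to 885 CPM in EV, without overlap over the 10 libraries. Of all single genes tested, 0.253% were higher in OE without overlap, but a sum is an unlike measure. How often sums over lists separate was not counted. The most abundant genes weigh most in the sum. The median deviation of the listed genes from their mean log2 CPM did overlap. It was -0.008, 0.025, 0.063, 0.292 and -0.009 in OE replicates 1 to 5. In EV replicates 1 to 5 it was -0.17, 0.057, -0.045, 0.057 and -0.158. The chemokines CXCL1 (93.6 CPM per kilobase) and CXCL8 (53.0) and TNFAIP2 (31.3) were the highest, and the log2 change, OE over EV, was 0.27 for CXCL1 (SE 0.09), 0.08 for CXCL8 (SE 0.11) and 0.17 for TNFAIP2 (SE 0.08). In replicate 5 against replicate 4, 6 of 14 fell, beside 7.1% of all genes, and 1 rose. Among those that fell were CXCL1 (-0.36, SE 0.06), CXCL8 (-0.32, SE 0.06) and the adhesion molecule ICAM1 (-0.46, SE 0.11). The interferon list had a median log2 change of -0.04 in OE against EV over both sets, with 0.18 in the second set and -0.18 in the first, and edgeR called 0 of 30 in each, while DESeq2 called IFI6 and IFIT2 in the first set.

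The genes most alike were ranked by Pearson's r of log2 CPM over the 10 libraries among 12086 genes, as a description of libraries that share set and vector. For SAA1 they were ARF6 (r = 0.98), ERF (0.95) and MED22 (0.94), and ARF6 stayed first after each set was centred (0.99). For C3 they were GLMP (r = 0.95), GALNT6 (0.92) and ICAM1 (0.92), for C1R they were RNF41 (0.92), DSTYK (0.92) and MAP2K4 (0.91), and for PTX3 they were ZBED8 (0.92), RP9P (0.91) and AC009244.1 (0.91). After centring, 1 of 3 was shared for SAA1 and PTX3 and 0 of 3 for C3 and C1R. Between the genes themselves r was 0.70 for C3 and C1R, 0.37 for SAA1 and C3, and -0.36 for SAA1 and PTX3. After each set was centred, r for these pairs was 0.68, 0.58 and -0.04 in the same order.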

How the data were processed

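RNA of TPC-1 cells was sequenced in 5 OE and 5 EV libraries. The submitters' processing notes name hg38 and the tools HISAT2 2.0.5, featureCounts 1.5.0-p3, fastp, CASAVA 1.8 and DESeq2 1.20.0, and the sources used here give neither their roles nor the annotation. Per the file headers, the deposited tables hold raw counts per gene and library. The authors' second table also gives a log2 fold change and a p-value for single pairs of libraries, and the deposited tables list each gene's length in bases. The 14 deposited per-library columns of normalized values were not used.

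Counts were joined by gene identifier and tested with edgeR 4.0.16 in R 4.3.3 (TMM, default filterByExpr, minimum count of 10, quasi-likelihood test, Benjamini-Hochberg adjustment over all genes, threshold 0.05). OE against EV was fitted over both sets with the set as a term and in each set, with an interaction for the difference; the second set against the first had vector as a term, and so had replicate 5 against replicate 4. Log2 CPM for likeness used a prior count of 2, for genes averaging at least 1. Promoters came from RefSeq and coding sequences from GENCODE 29. Alternatives were DESeq2 1.42.0, limma-voom (limma 3.58.1), RLE scaling, no filter, the replicate number as a block, and each library left out. Summing SAA1 and SAA2 and leaving out both libraries numbered 4 or 5 were chosen after seeing the data. The fits were tested on simulated data with known changes. No library repeated another of the same vector, since chi-square per degree of freedom between libraries of 1 group was 4.30 to 53.1.

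Named genes are the 8 genes, from each list the 3 highest per length and up to 3 past the threshold with the lowest p per comparison, and the 3 genes most alike, and a few of these are not reported here. The 8 genes and the lists were chosen with earlier results of these data known. Depth per library was 15761474 to 18066559 counts, and limits for a count of 0 cover counting error only.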

Additional observations from a re-analysis of the deposited data

Results flagged for a closer look

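Among 16 groups of 5 libraries, 3 values lay far from the other 4 by Dixon's criterion (critical value 0.71). Chance alone meets it in about 1 of 20 groups of libraries drawn alike. Each group here pools both sets, between which 18.4% of genes differed, so that rate need not hold. SAA1 was low in OE replicate 2, at 3.88 CPM, with 6.09 to 6.74 CPM in the other OE libraries. PTX3 was low in OE replicate 4, at 9.78 CPM, with 14.7 to 15.2 CPM in the other OE libraries. SAA2 was high in EV replicate 4, at 0.114 CPM from 2 counts, with a count of 0 in the other EV libraries. Beside 4 libraries at 0 any count above 0 meets the criterion, so the chance rate does not apply to SAA2.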

How the results depend on the processing

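Counts of genes called moved with the tool and the libraries, and the cause was not tested. EV replicate 2 stood apart from the other EV libraries of its set. Chi-square per degree of freedom was 38.2 between it and EV replicate 1 and 45.2 between it and EV replicate 3. Between EV replicates 1 and 3 it was 4.30. In OE against EV over both sets, 0 genes were called by edgeR as reported, 6 by DESeq2 (1 of the 8 genes, SAA1) and 23 without the filter (2, SAA1 and C3). In the first set edgeR called 5 genes, DESeq2 76 and the fit without a filter 90 (SAA1 and C3 in each, so 2), and leaving out single libraries gave 0 to 1578, the highest without EV replicate 2, with 0 to 2 of the 8 genes. In the second set 0 genes were called, 1 by DESeq2, 12 without the filter and 0 to 1 with libraries left out. The difference of the changes had 1 gene, 9 by DESeq2, 28 without the filter (1 of the 8 genes, C3) and 0 to 7 with libraries left out. The second set against the first had 2621 genes and 850 to 3849 with libraries left out, of which 850 is without the libraries numbered 4 and 1744 without those numbered 5. There the call of SAA1 was lost (0 of the 8 genes) with limma-voom, without either number, and in 7 of 10 fits that left out 1 library, giving 0 to 1. Replicate 5 against replicate 4 had 2074 genes and 376 by DESeq2, with C3 called by each tool.

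With the replicate block, OE against EV had 1 gene in the first set, 71 in the second and 3 for the difference, and 0 of the 8 genes in each. The change of C3 in the second set was then 0.14 (SE 0.06, edgeR adjusted p = 0.543), beside 0.10 (SE 0.41) without the block. After centring within vector and set, same-numbered libraries deviated together at r = -0.11, 0.004 and 0.16 for numbers 1 to 3. Numbers 4 and 5 both had 0.31, which is 1 value by construction, since each vector has 2 libraries in that set. The numbers were not taken as pairs in the main fits, though 14.4% of genes differed between numbers 4 and 5. No block could be fitted for the set and replicate contrasts, which the number contains, and leaving out a library of the 4 left no residual degrees of freedom. The change of C3 in the second set against the first, -0.15, was 0.07 without OE replicate 5 and 0.30 without the libraries numbered 5, and was -0.78 without those numbered 4. In OE against EV, SAA1 was above 0 in 19 of 19 settings over both sets, at 0.81 to 1.03, and C3 likewise, at 0.42 to 0.83. The order of levels without division by length kept 4 of 8 ranks. Depth limits CFB, LCN2, SAA2 and C1S, which had 13 to 47 counts in all.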
